A study of Mus musculus with 4 samples.

Results

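Endothelial leukocyte adhesion molecules are the surface proteins with which a vessel wall catches and holds passing blood cells. They were chosen here by gene symbol as 5 genes: the selectins Sele and Selp, and the immunoglobulin superfamily adhesion molecules Vcam1, Icam1 and Icam2. All 5 of 5 were found among the 31053 genes of the count tables, and each was followed across sinusoidal and other endothelial cells, stroma and blood cells. The mouse bone marrow libraries came from an experiment that crossed total body irradiation with deletion of Vegfc, a growth factor for venous and lymphatic endothelium.

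There were 4 libraries, 1 for each group, all from mice of strain C57Bl/6JCrl in which both copies of Vegfc are floxed. The irradiated Vegfc-deleted library (genotype RosaCreERT2;Vegfc flox/flox) and the irradiated control library (Vegfc flox/flox) were each pooled from 2 mice, taken 7 days after 4 Gy of total body irradiation. The non-irradiated Vegfc-deleted library and the non-irradiated control library were each pooled from 3 mice of the same pair of genotypes. Tamoxifen was given in 5 intragastric doses from 7 to 8 weeks of age, and irradiation followed 2 weeks later. Per the labels, mice of both genotypes received it, although another line of the labels limits it to some of the samples. The Cre recombinase was expressed from the ubiquitous Rosa26 locus, so deletion was not limited to a cell type. Cells flushed from tibias and digested with enzymes were sorted as DAPI-, Lin-, CD45- and Ter119-, and an antibody to VE-cadherin had been injected into the mice beforehand. With 1 library of pooled mice in each group there is no replicate, so no comparison was tested. The intervals below are 95% intervals that cover counting error only.

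Leukocytes leave or enter the marrow through its sinusoids, thin-walled venous vessels. Selectins slow a passing cell by binding sugars on ligands such as PSGL-1 (Selplg) and CD44. The immunoglobulin superfamily molecules then hold it through integrins: Vcam1 binds VLA-4 (Itga4 with Itgb1), and Icam1 and Icam2 bind LFA-1 (Itgal with Itgb2). Sele, Vcam1 and Icam1 are known as genes that inflammatory cytokines induce through NF-kB, whereas Selp protein is also stored ready made in endothelial Weibel-Palade bodies and in platelets.

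On mouse genome GRCm38 (GENCODE vM21), Sele (ENSMUSG00000026582) lies at chr1:164048234-164057677 on the plus strand. Selp (ENSMUSG00000026580) lies on the same strand of the same chromosome at chr1:164115264-164150026. Vcam1 (ENSMUSG00000027962) lies at chr3:116109949-116129688 on the minus strand. Icam1 (ENSMUSG00000037405) lies at chr9:21015985-21028817 on the plus strand. Icam2 (ENSMUSG00000001029) lies at chr11:106377656-106388075 on the minus strand.

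The RefSeq promoter table (GRCm38.p6) holds 3 of the 5 members, and the 250 bases before their start sites are shown because Sele and Icam1 had the large differences described below and Selp did not. All are on the plus strand, written 5′ to 3′, at chr1:164047984-164048233 (Sele), chr1:164115014-164115263 (Selp) and chr9:21015690-21015939 (Icam1). Capitals mark matches to the motifs searched.
Sele: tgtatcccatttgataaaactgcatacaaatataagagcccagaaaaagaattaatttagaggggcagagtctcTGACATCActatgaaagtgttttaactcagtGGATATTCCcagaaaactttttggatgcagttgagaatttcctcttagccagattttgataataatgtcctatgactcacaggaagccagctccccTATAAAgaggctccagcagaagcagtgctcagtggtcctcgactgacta
Selp: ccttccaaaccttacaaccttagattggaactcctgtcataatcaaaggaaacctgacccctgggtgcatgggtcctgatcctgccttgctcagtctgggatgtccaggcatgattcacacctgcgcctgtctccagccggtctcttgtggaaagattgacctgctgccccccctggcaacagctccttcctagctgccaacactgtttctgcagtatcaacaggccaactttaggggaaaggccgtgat
Icam1: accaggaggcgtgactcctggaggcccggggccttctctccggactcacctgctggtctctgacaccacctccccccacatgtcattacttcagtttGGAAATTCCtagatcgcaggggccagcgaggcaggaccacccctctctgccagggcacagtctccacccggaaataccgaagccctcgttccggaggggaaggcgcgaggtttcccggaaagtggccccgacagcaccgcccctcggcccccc

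The letters searched, chosen after these sequences had been read, were GGAANNTCC on both strands (an NF-kB-like motif), TGACATCA on both strands (an ATF-like motif) and TATAAA on the plus strand (a TATA box). Sele held GGATATTCC, a match on the minus strand, at positions -145 to -137 from the start site. It also held TGACATCA at -176 to -169 and TATAAA at -49 to -44. Icam1 held GGAAATTCC at -153 to -145. In Selp none of the 3 motifs was found in this window. Among 32817 RefSeq promoters cut in the same way, 3.58% held the NF-kB-like letters, 2.93% the ATF-like letters and 7.60% the TATA letters. No motif overlapped another. A match is a description of these letters and not a binding site. Vcam1 and Icam2 are named only.

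After filtering, 4028, 3763, 5058 and 4939 cells remained in the irradiated Vegfc-deleted, irradiated control, non-irradiated Vegfc-deleted and non-irradiated control libraries, with a median of 9685, 9805, 7913 and 7535 UMIs (unique molecular identifiers, each counting 1 captured RNA molecule). The libraries shared 3 to 18 cell barcodes per pair among the cells kept. Cell classes were rebuilt here from marker genes, with the 5 members left out of the clustering. In LepR+ stroma, Vegfc stood at 25.3 (interval 17.5 to 35.4) and 179 (167 to 192) CPM (counts per 1000000 UMIs of the class) in the irradiated Vegfc-deleted and irradiated control libraries. It stood at 18.2 (15.0 to 21.9) and 172 (164 to 179.95) CPM in the non-irradiated Vegfc-deleted and non-irradiated control libraries. The labels thus matched the targeted gene, although the place of the counted 3′ tags relative to the deleted part is not known. The sinusoidal class held 742, 1542, 367 and 315 cells in the same order of libraries, and all 9 of its markers, Stab2 and Flt4 among them, were detected in each library. Its cells came mainly from a cluster led by Adgrg6, Stab2 and Flt4 in the irradiated libraries (677 and 1398 cells) and from a cluster led by 8430408G22Rik, Rasgef1b and Stc1 in the non-irradiated libraries (312 and 289 cells).

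Sele encodes E-selectin, which marrow sinusoids are known to display without inflammation. In sinusoidal cells Sele stood at 121 CPM (interval 112 to 129.8) in irradiated Vegfc-deleted marrow and 87.8 CPM (83.4 to 92.5) in irradiated control marrow. It stood at 411 CPM (390.4 to 432) in non-irradiated Vegfc-deleted marrow and 515 CPM (490.2 to 541) in non-irradiated control marrow. Both irradiated libraries were low and both non-irradiated libraries high, with no overlap of the intervals. The log2 ratio of irradiated to non-irradiated was -1.77 (-1.89 to -1.64) in Vegfc-deleted mice, 3.40-fold lower, and -2.55 (-2.66 to -2.45) in controls, 5.87-fold lower. Between genotypes Sele was higher with the deletion after irradiation (log2 ratio 0.46, 0.33 to 0.59) and lower with it without irradiation (-0.33, -0.43 to -0.22).

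Fewer irradiated cells held any Sele. With every cell thinned to 1500 UMIs, 14.3% (11.8 to 17.0) of irradiated Vegfc-deleted and 11.7% (10.1 to 13.4) of irradiated control sinusoidal cells had a Sele UMI. The share was 34.2% (29.3 to 39.3) in non-irradiated Vegfc-deleted and 40.8% (35.2 to 46.5) in non-irradiated control cells. The same thinning left 715, 1505, 363 and 309 sinusoidal cells and no erythroid cell with a Sele UMI in any library. Without thinning, the shares were 42.7%, 39.3%, 80.7% and 78.7%, at sinusoidal median depths of 7402, 9795, 9439 and 9640 UMIs. What Sele remained after irradiation was also held by fewer cells: the 10% of sinusoidal cells richest in Sele carried 53.9% and 56.8% of its UMIs in the irradiated Vegfc-deleted and irradiated control libraries. Those 10% carried 43.6% and 42.4% in the non-irradiated Vegfc-deleted and non-irradiated control libraries. This share also grows as counts per cell fall.

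Selp encodes P-selectin. It stood at 468 CPM (451 to 486) in irradiated Vegfc-deleted and 512 CPM (501 to 523) in irradiated control sinusoidal cells. It stood at 561 CPM (537 to 586) in non-irradiated Vegfc-deleted and 689.9 CPM (661 to 719.8) in non-irradiated control cells. The order matched that of treatment, but the differences were small: the log2 ratio of irradiated to non-irradiated was -0.26 (-0.34 to -0.18) in Vegfc-deleted mice and -0.43 (-0.50 to -0.36) in controls. Selp was also slightly lower with the deletion, by -0.13 (-0.19 to -0.067) after irradiation and -0.30 (-0.39 to -0.21) without it. The share of thinned sinusoidal cells with a Selp UMI was 46.7%, 48.5%, 47.1% and 48.5% in the irradiated Vegfc-deleted, irradiated control, non-irradiated Vegfc-deleted and non-irradiated control libraries, with overlapping intervals. The neighbouring selectins on chromosome 1 therefore differed in the size of their ratios, with intervals that did not overlap in either genotype.

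Vcam1, the ligand of VLA-4, stood at 1727 CPM (1694 to 1760.1) in irradiated Vegfc-deleted and 1352 CPM (1334 to 1369.7) in irradiated control sinusoidal cells. It stood at 2061 CPM (2015 to 2108) in non-irradiated Vegfc-deleted and 1752 CPM (1705 to 1799) in non-irradiated control cells. Vcam1 was slightly lower after irradiation in both genotypes, by -0.25 (-0.30 to -0.21) in Vegfc-deleted mice and -0.37 (-0.42 to -0.33) in controls on the log2 scale. It was the member that stood higher with the deletion in both treatments, by 0.35 (0.32 to 0.39) after irradiation and 0.23 (0.18 to 0.29) without it. Of thinned sinusoidal cells, 86.0%, 76.7%, 84.8% and 77.7% had a Vcam1 UMI in the irradiated Vegfc-deleted, irradiated control, non-irradiated Vegfc-deleted and non-irradiated control libraries, the Vegfc-deleted library being the higher of each pair.

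Icam1, a ligand of LFA-1 and Mac-1, followed Sele. In sinusoidal cells it stood at 151 CPM (141 to 161) in irradiated Vegfc-deleted and 205 CPM (199 to 212) in irradiated control marrow. It stood at 764 CPM (736 to 793) in non-irradiated Vegfc-deleted and 815 CPM (784 to 848) in non-irradiated control marrow. Again both irradiated libraries lay well under both non-irradiated ones. The log2 ratio of irradiated to non-irradiated was -2.34 (-2.45 to -2.23) in Vegfc-deleted mice, 5.07-fold lower, and -1.99 (-2.06 to -1.91) in controls, 3.97-fold lower. Between genotypes the log2 ratio was -0.45 (-0.55 to -0.34) after irradiation and -0.093 (-0.17 to -0.015) without it. The share of thinned cells with an Icam1 UMI was 21.8% (18.8 to 25.03) in irradiated Vegfc-deleted and 23.9% (21.7 to 26.1) in irradiated control cells. It was 51.0% (45.7 to 56.2) in non-irradiated Vegfc-deleted and 64.4% (58.8 to 69.7) in non-irradiated control cells.

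Icam2, a ligand of LFA-1 known for steady expression on resting endothelium, went the other way by a small amount. It stood at 203 CPM (192 to 215) in irradiated Vegfc-deleted and 213 CPM (206 to 220.01) in irradiated control sinusoidal cells. It stood at 177 CPM (163 to 191) in non-irradiated Vegfc-deleted and 158 CPM (145 to 173) in non-irradiated control cells. The log2 ratio of irradiated to non-irradiated was 0.20 (0.064 to 0.34) in Vegfc-deleted mice and 0.43 (0.29 to 0.57) in controls. Between genotypes both intervals held 0, at -0.067 (-0.16 to 0.027) after irradiation and 0.16 (-0.012 to 0.33) without it.

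**Figure D1:**
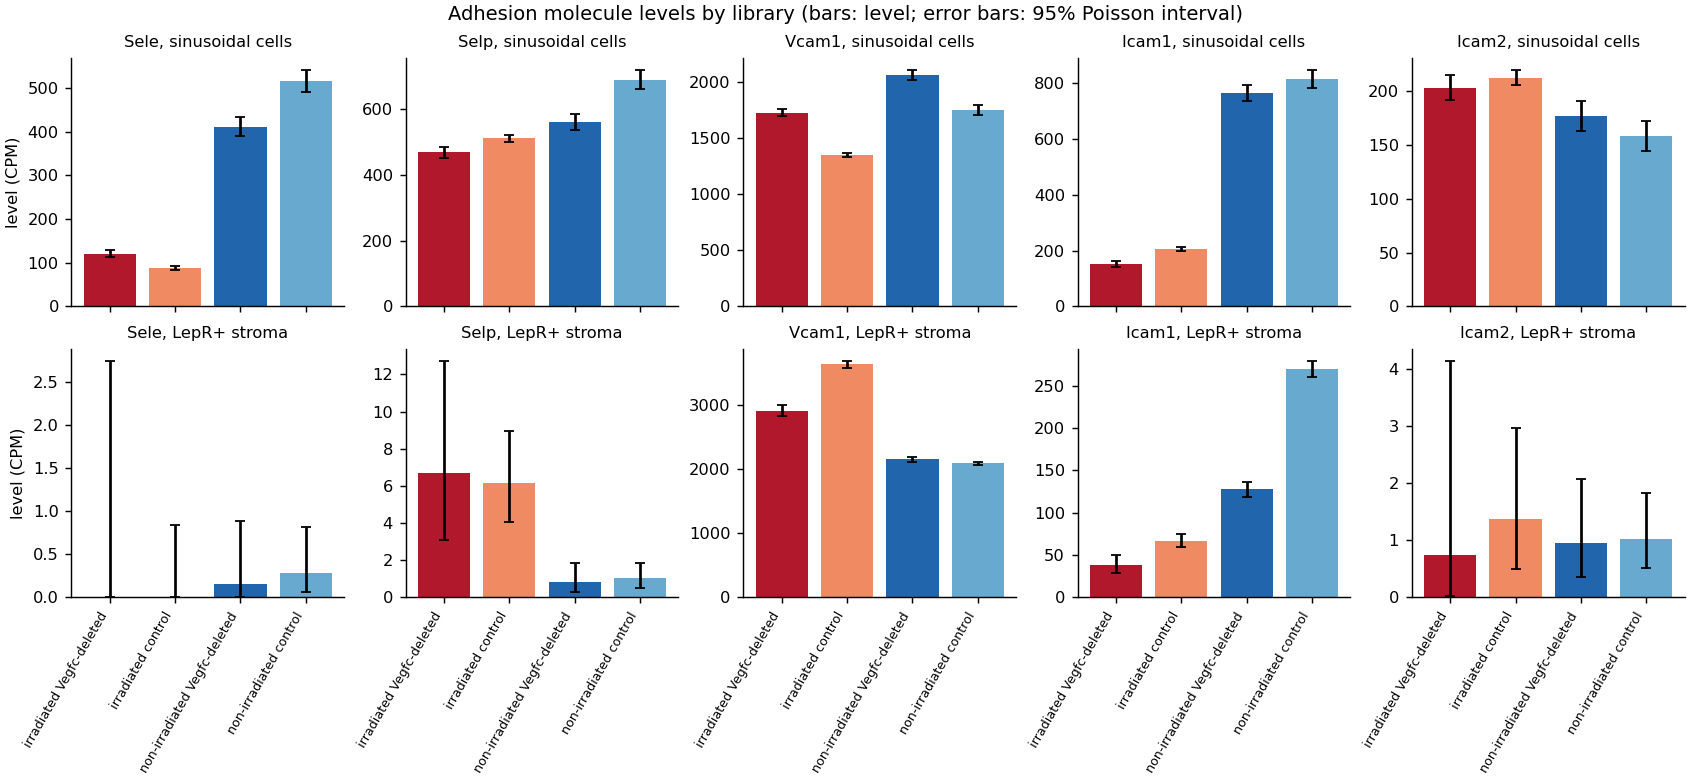
Levels of the 5 members in sinusoidal endothelial cells (top) and LepR+ stroma (bottom), in CPM of the class, with 1 bar per library and error bars for the 95% Poisson interval. In sinusoidal cells Sele and Icam1 were at 87.8 to 205 CPM in the irradiated libraries and at 411 to 815 CPM in the non-irradiated ones, while Selp, Vcam1 and Icam2 lay within narrower ranges.

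Against a threshold of 1.5-fold, 2 of the 5 members (Sele and Icam1) were lower after irradiation in sinusoidal cells of both genotypes and none was higher. Over all genes with at least 30 counts in 1 of the libraries compared, 7.42% were lower by that much in Vegfc-deleted mice and 7.56% in controls, while 15.5% and 19.2% were higher. The median log2 ratio was -0.26 over the 5 members and 0.16 over all genes in Vegfc-deleted mice, and -0.43 over the members and 0.19 over all genes in controls. TMM scaling lowers every such ratio by 0.12 on the log2 scale. With it, 9.47% of genes were lower and 11.3% higher in Vegfc-deleted mice, and 9.94% lower and 14.8% higher in controls. Between genotypes 0 of 5 members passed 1.5-fold. There the background was 2.73% higher and 6.19% lower after irradiation, and 4.42% higher and 3.92% lower without it.

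**Figure D2:**
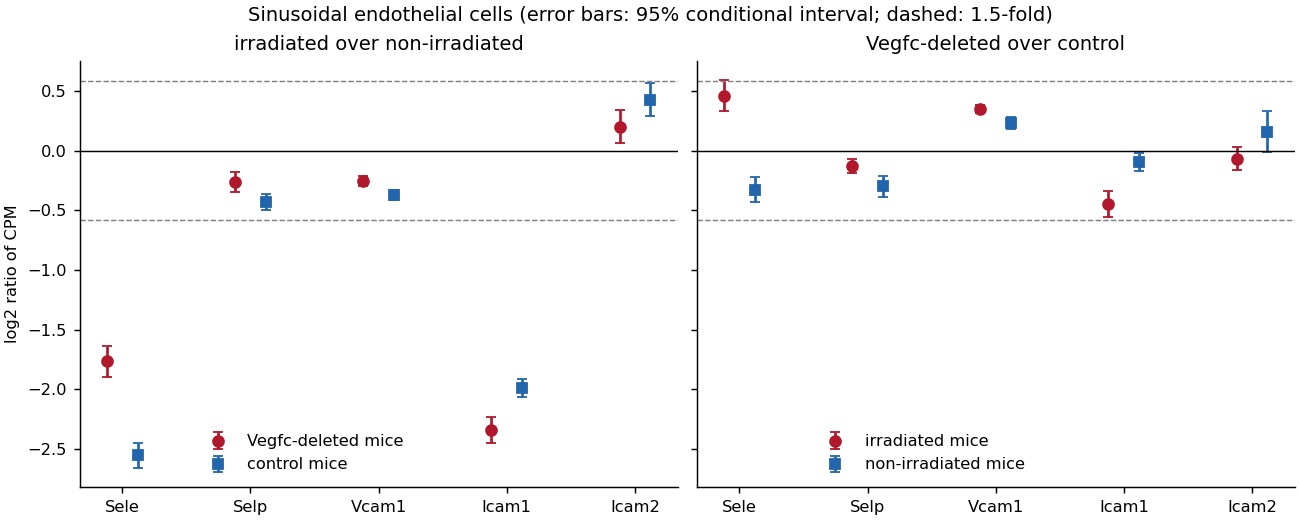
Log2 ratios of class CPM in sinusoidal endothelial cells, irradiated over non-irradiated (left, by genotype) and Vegfc-deleted over control (right, by treatment), with 95% conditional intervals and dashed lines at 1.5-fold. Sele and Icam1 lie between -2.55 and -1.77 on the left, and all members lie within the dashed lines on the right.

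Immediate early genes, which enzymatic dissociation is known to switch on, moved with the same libraries. The median count of 19 such genes per thinned sinusoidal cell was 13 and 28 UMIs in the irradiated Vegfc-deleted and irradiated control libraries and 51 and 49 UMIs in the non-irradiated Vegfc-deleted and non-irradiated control libraries. Their summed level was 9973, 19196, 33658 and 34931 CPM in that order of libraries. Of the 19, 18 and 14 were at least 1.5-fold lower after irradiation in Vegfc-deleted mice and controls, against 7.42% and 7.56% of all genes. Atf3, a stress-induced transcription factor, stood at 9.80, 72.8, 286 and 423 CPM. Cells were split at the pooled median of 27 immediate early UMIs. At or under that median (626, 728, 68 and 43 cells), Sele stood at 102 and 108 CPM in the irradiated Vegfc-deleted and irradiated control libraries. It stood at 402 and 388 CPM in the non-irradiated Vegfc-deleted and non-irradiated control libraries. Sele was lower in the irradiated cells of this split at log2 ratios of -1.98 in Vegfc-deleted mice and -1.84 in controls, where the whole class gave -1.77 and -2.55. Above the median it stood at 225 and 90.9 CPM in the irradiated Vegfc-deleted and irradiated control libraries and at 355 and 536 CPM in the non-irradiated Vegfc-deleted and non-irradiated control libraries.

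Icam1 moved more with the split. At or under the median it stood at 158 CPM (133 to 185) in irradiated Vegfc-deleted and 142 CPM (120.5 to 166) in irradiated control cells. It stood at 216 CPM (135 to 327) in non-irradiated Vegfc-deleted and 449.6 CPM (301 to 646) in non-irradiated control cells. Its log2 ratio of irradiated to non-irradiated there was -0.45 in Vegfc-deleted mice, under 1.5-fold, and -1.66 in controls. Above the median (89, 777, 295 and 266 cells) Icam1 stood at 367, 259, 771 and 982 CPM, higher than under it in every library. Selp and Vcam1 at or under the median differed between irradiated and non-irradiated cells by -0.077 to -0.015 on the log2 scale. Icam2 turned direction in Vegfc-deleted mice, at -0.77. The ratios of Vegfc-deleted to control turned direction for Sele, at -0.080 after irradiation and 0.052 without it, for Selp, at 0.0070 and 0.011, and for Icam1 after irradiation, at 0.15. The part of dissociation in any of these results was not tested.

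**Figure D3:**
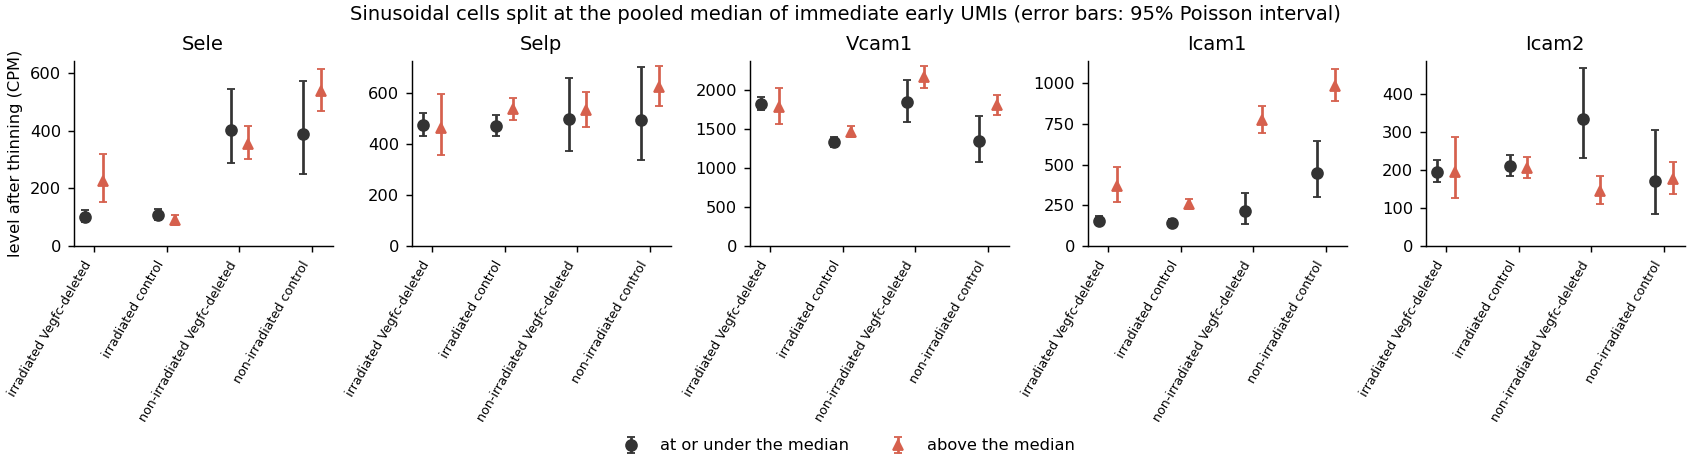
Levels after thinning of each sinusoidal cell to 1500 UMIs, in CPM with 95% Poisson intervals, for cells at or under (dark circles) and above (red triangles) the pooled median of immediate early UMIs, in the 4 libraries. Among cells at or under the median, Sele was at 102 and 108 CPM in the irradiated libraries against 402 and 388 CPM in the non-irradiated ones, while Icam1 was at 158 and 142 against 216 and 449.6 CPM.

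The sinusoidal cluster led by Adgrg6, Stab2 and Flt4 held 677 irradiated and 48 non-irradiated Vegfc-deleted cells, which allowed a comparison inside 1 cluster. There Sele stood at 123 CPM (114 to 132) in irradiated and 285 CPM (234 to 343) in non-irradiated Vegfc-deleted cells, a log2 ratio of -1.21 (-1.51 to -0.91). Icam1 stood at 153 CPM (143 to 163) in irradiated and 233 CPM (187 to 286) in non-irradiated cells, a log2 ratio of -0.61 (-0.92 to -0.28). Both stayed lower after irradiation, by less than in the whole class. Selp turned direction inside the cluster, at 473 CPM in irradiated and 388 CPM in non-irradiated cells (log2 ratio 0.29). Vcam1, at 1738 and 1698 CPM, differed by 0.034 (-0.080 to 0.15), and Icam2 differed by -0.18. Without irradiation, the cluster led by 8430408G22Rik, Rasgef1b and Stc1 gave the genotypes the same order as the class: Vcam1 stood at 2099 CPM in Vegfc-deleted and 1737 CPM in control cells, and Icam1 at 829 and 837 CPM. RNA of other cells moved with irradiation too: 10 haemoglobin and granule genes summed to 1437 and 1293 CPM in the irradiated Vegfc-deleted and irradiated control sinusoidal cells and to 10356 and 7970 CPM in the non-irradiated Vegfc-deleted and non-irradiated control cells. The haemoglobin genes made up that difference, Hbb-bs standing at 122, 492, 4840 and 3584 CPM in this order of libraries. Granule genes did not follow it, since 6 of the 10 genes were at least 1.5-fold higher after irradiation in Vegfc-deleted mice, against 15.5% of all genes. S100a8 stood at 464, 60.04, 182 and 57.2 CPM. All 8 markers of LepR+ stroma were detected in sinusoidal cells of each library, at a sum of 533, 594, 337 and 507 CPM in the order of libraries used above. Of 9 neutrophil markers, summing to 1255, 136, 474 and 144 CPM, Mmp8 was at 0 in the non-irradiated control library. The part of such RNA in these levels was not tested.

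How often members shared a cell differed by pair. Among thinned sinusoidal cells with Sele, 24.5%, 30.1%, 51.6% and 65.1% also had Icam1 in the irradiated Vegfc-deleted, irradiated control, non-irradiated Vegfc-deleted and non-irradiated control libraries. Among cells without Sele the share with Icam1 was 21.4%, 23.0%, 50.6% and 63.9%. The share with Icam1 was thus higher beside Sele in each library, by little in the non-irradiated ones. It rested on 102, 176, 124 and 126 cells with Sele in the same order, and no interval was computed for these differences. Selp was found in 46.1%, 58.5%, 52.4% and 59.5% of cells with Sele and in 46.8%, 47.2%, 44.4% and 41.0% of cells without it, so Selp was more frequent beside Sele in 3 of the 4 libraries and not in the irradiated Vegfc-deleted one. In the non-irradiated control library Icam2 was found in 28.0% of cells with Selp and 15.7% of cells without it. In the irradiated Vegfc-deleted, irradiated control and non-irradiated Vegfc-deleted libraries Icam2 was less frequent beside Selp. There it was in 24.3%, 26.0% and 17.5% of cells with Selp and in 26.8%, 27.5% and 24.5% of cells without it. In the irradiated control library Vcam1 was found in 81.8% of cells with Selp and 72.0% of cells without it. Over all pairs and libraries the Pearson correlation of log counts lay between -0.074 and 0.21, across the thinned sinusoidal cells of each library. Cells with 4 or all 5 members made up 4.90% and 0.559% in the irradiated Vegfc-deleted library and 5.25% and 0.465% in the irradiated control library. They made up 11.3% and 1.10% in the non-irradiated Vegfc-deleted library and 18.4% and 3.24% in the non-irradiated control library.

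Arterial or capillary endothelium was scarce, and the irradiated control library, with 37 such cells, was the only library to reach the minimum of 20. There Icam2 stood at 365 CPM (316 to 420.1), above its sinusoidal level of 213 CPM in the same library. Vcam1 stood at 322 CPM (276 to 374), Icam1 at 58.0 CPM (39.4 to 82.4) and Selp at 18.7 CPM (8.98 to 34.4), all under their sinusoidal levels. No Sele UMI was found in these cells, where 3 counts would be 5.62 CPM, against 87.8 CPM in sinusoidal cells. All 8 markers of LepR+ stroma were detected in the 37 cells, at a sum of 2876 CPM against 594 CPM in sinusoidal cells of that library. The 10 erythroid markers summed to 14512 CPM against 1179 CPM. The part of RNA of other cells in these levels, Vcam1 included, was not tested.

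LepR+ stromal cells, the perivascular source of Cxcl12 and Kitl in marrow, carried Vcam1 and Icam1 and almost no selectin. The class held 136, 403, 625 and 1071 cells in the irradiated Vegfc-deleted, irradiated control, non-irradiated Vegfc-deleted and non-irradiated control libraries. Vcam1 stood at 2906 CPM (2816 to 2999) in irradiated Vegfc-deleted and 3627 CPM (3570.5 to 3683) in irradiated control cells. It stood at 2148 CPM (2112 to 2185) in non-irradiated Vegfc-deleted and 2084 CPM (2056 to 2111) in non-irradiated control cells. Vcam1 was thus higher after irradiation in stroma, by 0.44 (0.38 to 0.49) in Vegfc-deleted mice and 0.80 (0.77 to 0.83) in controls on the log2 scale, opposite in sign to sinusoidal cells.

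Stromal Icam1 was lower after irradiation, as in sinusoidal cells. It stood at 38.0 CPM (28.3 to 49.97) in irradiated Vegfc-deleted and 66.3 CPM (58.9 to 74.4) in irradiated control cells. It stood at 127 CPM (119 to 136) in non-irradiated Vegfc-deleted and 269 CPM (259.5 to 279) in non-irradiated control cells. Each of the 4 intervals lay apart from the others. The log2 ratio of irradiated to non-irradiated was -1.74 (-2.18 to -1.34) in Vegfc-deleted mice, 3.35-fold lower, and -2.02 (-2.20 to -1.85) in controls, 4.06-fold lower. Stromal Icam1 was also lower with the deletion, by -0.80 (-1.26 to -0.37) after irradiation, 1.75-fold, and by -1.08 (-1.19 to -0.97) without it, 2.11-fold. After irradiation the difference fell under 1.5-fold when cells were thinned to 1500 UMIs (-0.44, from 9 and 36 UMIs) and when doublets were kept (-0.58). The share of thinned cells with an Icam1 UMI was 6.62%, 7.71%, 13.2% and 25.9% in the order of libraries given above.

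In stroma, 1 of the 5 members (Icam1) was at least 1.5-fold lower after irradiation in each genotype, where the background over all genes was 12.8% in Vegfc-deleted mice and 10.9% in controls. Vcam1 was at least 1.5-fold higher in controls, against a background of 17.9%, and no member was in Vegfc-deleted mice, against 17.7%. With TMM scaling, which lowers the ratios by 0.20 and 0.19, the backgrounds became 18.5% lower and 9.96% higher in Vegfc-deleted mice and 15.8% lower and 10.5% higher in controls. Between genotypes Icam1 was the 1 member called, and it was lower both after irradiation (background 12.5%) and without it (4.98%), while none was higher (7.93% and 2.23%). The selectins and Icam2 had too few counts to be compared: Sele had 0 to 3 UMIs, Selp 5 to 27 and Icam2 1 to 11 in a library.

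The stromal class also came from different clusters by treatment, led by Adamts15, Lpl and Fzd1 in irradiated marrow (119 and 365 cells) and by Mgp, Igfbp5 and Wisp2 in non-irradiated marrow (620 and 1066 cells). Within the Mgp cluster, Vcam1 stood at 2181 CPM in the 38 irradiated control cells and 2084 CPM in non-irradiated control cells, a log2 ratio of 0.066 (-0.035 to 0.17). The higher stromal Vcam1 of irradiated controls thus lay in the cluster led by Adamts15, Lpl and Fzd1, at 3766 CPM, and not in the Mgp cluster. Icam1 was lower within the Mgp cluster as well, at 101 CPM in irradiated and 269 CPM in non-irradiated control cells (log2 ratio -1.41, -1.91 to -0.96). Its difference between genotypes held within clusters: without irradiation it stood at 124 CPM in Vegfc-deleted and 269 CPM in control cells of the Mgp cluster, and after irradiation at 41.5 and 63.0 CPM in the Adamts15 cluster. Immediate early genes summed to 8526 and 19395 CPM in irradiated Vegfc-deleted and irradiated control stroma and to 40335 and 38871 CPM in non-irradiated Vegfc-deleted and non-irradiated control stroma. RNA of other cells differed as well: 10 erythroid markers summed to 3326, 571, 8828 and 9655 CPM in stroma of the irradiated Vegfc-deleted, irradiated control, non-irradiated Vegfc-deleted and non-irradiated control libraries, and 9 neutrophil markers to 2718, 159, 581 and 134 CPM. The 9 sinusoidal markers, each detected in every library, summed to 7918, 2807, 308 and 268 CPM in the same order. Fabp4, a fatty acid binding protein also known from adipocytes, made up 7710, 2495, 70.2 and 63.9 CPM of these sums, while Stab2 stood at 3.73, 8.66, 1.90 and 1.21 CPM. The part of these genes and of the immediate early genes in the stromal Vcam1 and Icam1 levels was not tested. An unnamed cluster led by Mepe, Dmp1 and Spp1 also had lower Icam1 in the irradiated libraries, at 34.4, 29.7, 139 and 338 CPM in that order of libraries. Its lower level with the deletion was seen without irradiation and not after it.

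Vcam1 reached its highest level in macrophages. A cluster led by Cd5l, Fcna and Ccr3, with Spic and Cd163 among its leading genes, held 236, 83, 67 and 35 cells of low depth (medians of 1074 to 1416 UMIs). Vcam1 is a known surface marker of marrow macrophages that attend maturing red cells. In this cluster it stood at 4812 CPM (4667 to 4961) in irradiated Vegfc-deleted and 5319 CPM (5074 to 5573) in irradiated control cells. It stood at 6787 CPM (6455 to 7132) in non-irradiated Vegfc-deleted and 5483 CPM (5024 to 5973) in non-irradiated control cells. The irradiated level was lower in Vegfc-deleted mice (log2 ratio -0.50, -0.58 to -0.41), and in controls the interval held 0 (-0.044, -0.19 to 0.0996). Other cells of the class carried much less: a cluster led by Clec10a, C1qb and C1qa had 234 and 478 CPM in the irradiated Vegfc-deleted and irradiated control libraries, and a monocyte cluster led by F13a1, Vcan and Fn1 had 6.83 to 31.8 CPM. The class as a whole, at 604, 1127, 643 and 1733 CPM, combined these clusters in different shares.

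**Figure D4:**
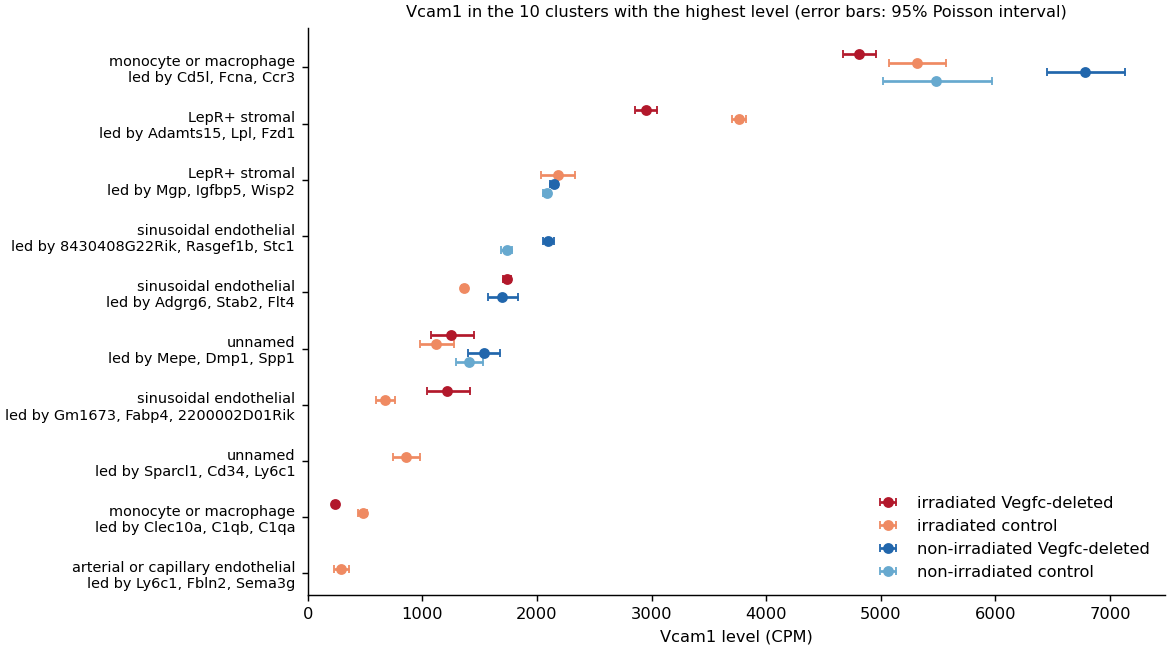
Vcam1 level in CPM, with 95% Poisson intervals, in the 10 clusters with the highest level, 1 point for each library with at least 20 cells. The macrophage cluster led by Cd5l, Fcna and Ccr3 lies at 4812 to 6787 CPM, above the LepR+ stromal clusters and the sinusoidal clusters.

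Megakaryocytes, which pack P-selectin into the granules of platelets, were the second class for Selp. It stood at 76.7 CPM (48.1 to 116) in irradiated Vegfc-deleted and 159 CPM (133 to 189) in irradiated control megakaryocytes. It stood at 107 CPM (86.7 to 131) in non-irradiated Vegfc-deleted and 95.1 CPM (76.5 to 117) in non-irradiated control megakaryocytes. The irradiated control library was the high one, with a log2 ratio of 0.75 (0.35 to 1.15) to non-irradiated controls, while in Vegfc-deleted mice the interval held 0 (-0.48, -1.22 to 0.20). With the deletion after irradiation Selp was lower by -1.06 (-1.78 to -0.40), with 22 UMIs in 33 cells against 133 UMIs in 103 cells. The irradiated control megakaryocytes also held 41 Vcam1 UMIs in 11 of 103 cells.

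Other blood cell classes differed in the members they carried. All blood cells here, macrophages and megakaryocytes included, were those found after a sort for Lin-, CD45- and Ter119- cells. Their levels need not be those of all marrow blood cells. In B-lineage cells Icam1 stood at 20.2 CPM (14.5 to 27.4) in irradiated Vegfc-deleted and 22.0 CPM (18.5 to 26.0) in irradiated control marrow. It stood at 59.6 CPM (53.1 to 66.6) in non-irradiated Vegfc-deleted and 43.9 CPM (38.0 to 50.5) in non-irradiated control marrow. Icam1 was thus lower after irradiation in this class too, at log2 ratios of -1.56 (-2.07 to -1.09) in Vegfc-deleted mice and -0.996 (-1.32 to -0.68) in controls. The class came from different clusters by treatment: a cluster led by Myl10, Vpreb2 and Igll1 held 107 of 128 irradiated Vegfc-deleted and 296 of 393 irradiated control cells, and 126 of 783 non-irradiated Vegfc-deleted and 106 of 787 non-irradiated control cells. Within it the ratios of Icam1 were smaller, at -1.05 (-1.68 to -0.43) in Vegfc-deleted mice and -0.66 (-1.24 to -0.052) in controls. Icam1 was not lower in every class. In the monocyte or macrophage class it stood at 58.9 CPM in irradiated and 32.1 CPM in non-irradiated Vegfc-deleted marrow, a log2 ratio of 0.88 (0.53 to 1.24). In controls the interval of that class held 0 (-0.012, -0.63 to 0.66). Icam2 in B-lineage cells lay between 23.0 and 32.9 CPM in all 4 libraries, close to its 33.3 to 33.4 CPM in basophils or mast cells and 26.9 to 33.3 CPM in early myeloid cells. T or NK cells of irradiated marrow held Vcam1 in few cells, 60 of 332 in the Vegfc-deleted and 9 of 41 in the control library, yet at 120 and 201 CPM it stood above Icam1 at 62.3 and 85.4 CPM. In 41 irradiated control T or NK cells, Selp had 45 UMIs in 8 cells. The same 41 cells had 7 Sele UMIs, at 14.2 CPM. The part of sinusoidal RNA or of doublets left in these levels was not tested. Poisson intervals do not cover counts gathered in few cells. Erythroid cells set the low end, at most 1.73 CPM for Sele, Selp, Icam1 and Icam2 and 4.34 to 8.29 CPM for Vcam1.

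**Figure D5:**
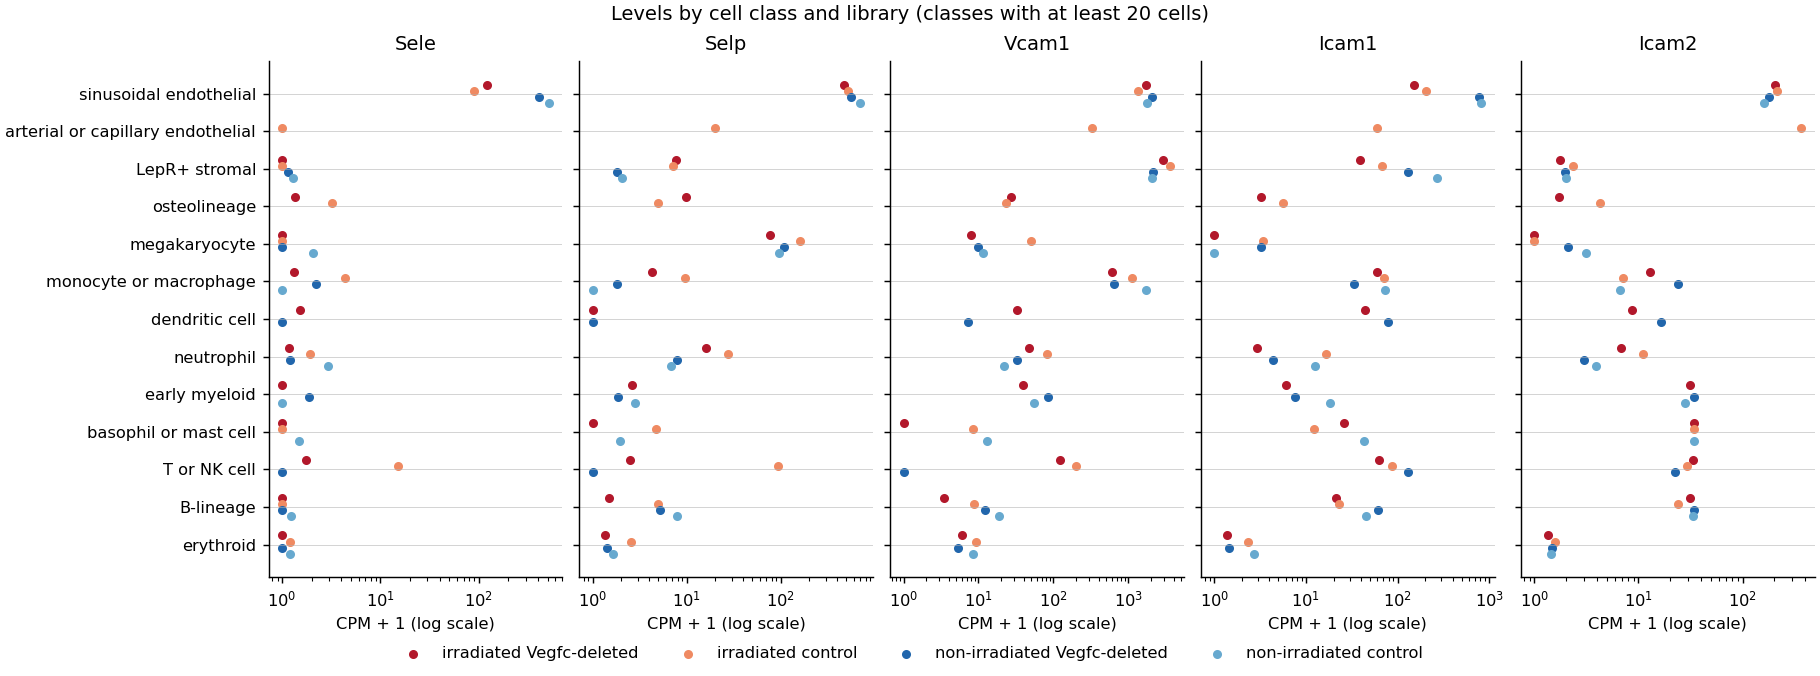
Level of each member by cell class (rows) and library (colours), as CPM + 1 on a log axis, for classes with at least 20 cells. Sele is at 87.8 to 515 CPM in the sinusoidal class and at most 14.2 CPM in any other, Selp is also seen in megakaryocytes at 76.7 to 159 CPM, and Vcam1 is highest in LepR+ stroma, sinusoidal cells and the monocyte or macrophage class.

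Averaged over libraries, the order of classes differed by member. Sele was highest in sinusoidal cells, and every other class lay at or under 14.2 CPM in every library. For Selp the order was sinusoidal cells, megakaryocytes, then T or NK cells. The place of T or NK cells came from the 41 irradiated control cells, few of which held its UMIs, at 91.5 CPM (66.7 to 122). That interval overlapped those of megakaryocytes in the other libraries. In T or NK cells Selp stood at 1.51 CPM in irradiated Vegfc-deleted and 0 CPM in non-irradiated Vegfc-deleted marrow. For Vcam1 the order was LepR+ stroma and then sinusoidal cells, at 2084 to 3627 CPM and 1352 to 2061 CPM. These ranges nearly met: the interval of the lowest stromal level (2056 to 2111) overlapped that of the highest sinusoidal level (2015 to 2108). The monocyte or macrophage class followed at 604 to 1733 CPM, which overlapped the sinusoidal range. For Icam1 sinusoidal cells came first at 151 to 815 CPM and LepR+ stroma second at 38.0 to 269 CPM, with overlap. For Icam2 the 37 arterial or capillary cells came before sinusoidal cells.

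Cells that carry the counter-receptors were in the same libraries. The leukocytes among them were those found despite the sort for Lin- and CD45- cells, so their levels need not be those of all marrow leukocytes. Their numbers differed by library: T or NK cells numbered 332, 41, 21 and 0 in the irradiated Vegfc-deleted, irradiated control, non-irradiated Vegfc-deleted and non-irradiated control libraries. Selplg was highest in non-irradiated Vegfc-deleted dendritic cells at 754 CPM (662 to 854). Itga4 was highest in T or NK cells and dendritic cells at 445 to 534 CPM, and Itgal in T or NK cells at 291 to 315 CPM. Itgam and Itgb2, the chains of Mac-1, were highest in neutrophils at 574 to 615 CPM and 381 to 424 CPM. Itga9, another integrin chain that binds Vcam1, stood in sinusoidal cells at 78.5 and 84.2 CPM in irradiated Vegfc-deleted and irradiated control marrow against 191 and 127 CPM in non-irradiated Vegfc-deleted and non-irradiated control marrow. The non-irradiated sinusoidal levels were its highest, followed by 88.0 CPM (64.7 to 117) in the irradiated control arterial or capillary cells.

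Genes of the NF-kB loop were lower in irradiated sinusoidal cells. Of 17 NF-kB factors and feedback genes, 11 were at least 1.5-fold lower and 0 higher in Vegfc-deleted mice, with a median log2 ratio of -0.87. In controls 12 were lower and 1 higher, with a median of -0.92, and the medians over all genes were 0.16 and 0.19. Over all genes, 7.42% were lower and 15.5% higher in Vegfc-deleted mice, and 7.56% lower and 19.2% higher in controls. Nfkbia, the inhibitor that NF-kB itself induces, stood at 123 and 173 CPM in irradiated Vegfc-deleted and irradiated control cells and at 865 and 981 CPM in non-irradiated Vegfc-deleted and non-irradiated control cells. Birc3 stood at 32.3 and 40.3 CPM in the irradiated pair and 205 and 182 CPM in the non-irradiated pair, and Tnfaip3, a brake on NF-kB signalling, at 5.71 and 6.58 CPM against 28.0 and 36.5 CPM. Nfkb1, which encodes a subunit of the factor, was slightly higher, at 229 and 267 CPM in the irradiated pair and 193 and 225 CPM in the non-irradiated pair. Several of these genes are also known to respond to dissociation, and the immediate early levels given above moved with them.

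Genes upstream of the members differed less. Of 13 cytokine receptors, 12 had enough counts in Vegfc-deleted mice and 13 in controls, and 2 were lower in each while 3 were higher in Vegfc-deleted mice and 1 in controls. Over all genes, 7.42% were lower and 15.5% higher in Vegfc-deleted mice, and 7.56% lower and 19.2% higher in controls. Osmr, the oncostatin M receptor, stood at 128 and 136 CPM in irradiated Vegfc-deleted and irradiated control cells against 262 and 277 CPM in non-irradiated Vegfc-deleted and non-irradiated control cells. Il1r1, the interleukin 1 receptor, stood at 25.5 and 23.7 CPM in the irradiated pair against 55.7 and 42.6 CPM in the non-irradiated pair. Tlr4, the receptor for lipopolysaccharide, was higher, at 28.1 and 24.2 CPM against 13.1 and 14.9 CPM. Of 7 genes of Weibel-Palade bodies, 6 had enough counts and none was lower. Among them 3 were higher in Vegfc-deleted mice and 2 in controls, beside the same shares over all genes. Angpt2, a cargo of these bodies, stood at 34.0 and 42.9 CPM in the irradiated pair against 14.7 and 18.7 CPM in the non-irradiated pair.

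Of 19 other genes of endothelial adhesion and passage, 4 were lower in each genotype, while 1 was higher in Vegfc-deleted mice (of 14 with enough counts) and 2 in controls (of 15). The shares over all genes were 7.42% lower and 15.5% higher in Vegfc-deleted mice, and 7.56% lower and 19.2% higher in controls. Ackr1, the atypical chemokine receptor of venular endothelium, stood at 1122 and 917 CPM in irradiated Vegfc-deleted and irradiated control cells against 709 and 690.2 CPM in non-irradiated Vegfc-deleted and non-irradiated control cells. Pecam1, a junction molecule, stood at 562 and 601 CPM against 445 and 432 CPM. Icam5 stood at 0.163 and 0.846 CPM against 13.6 and 21.0 CPM. Icam5 lies at chr9:21032073-21039036 on the strand of Icam1 with Icam4 between them, so reads that run past Icam1 could not be told apart from its own.

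By Pearson correlation of log2(CPM + 1) over 34 profiles of class and library, the genes most like each member were named among 7959 genes, as a description of profiles that share libraries. Only profiles of at least 50 cells were used, which left out arterial or capillary endothelium, and only genes that reached 50 CPM in a profile. Sele was most like Dll4 (r = 0.98) and Sox17 (0.97). Sox17 was among the markers used for arterial or capillary cells, and no Sele UMI was found in those of the irradiated control library. Selp was most like Esam (0.95), Vcam1 most like Nrp1 (0.95), Icam1 most like Sgk1 (0.92) and Irf1 (0.92), and Icam2 most like Mfng (0.90). Between members the closest pair was Sele with Selp (0.76), followed by Vcam1 with Icam1 (0.75).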

How the data were processed

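Droplet libraries of sorted bone marrow cells were made with the 10x Chromium 3′ kit (version 3.1), per the labels' protocols. The authors deposited raw UMI counts for each gene in each cell barcode. Cell Ranger 2.1.1 and genome build mm10 are named per the submitters' processing notes, while the deposited count headers give software version 3.1.0. No source used here gives the filters applied before deposit, and the lowest total of a deposited barcode was 500 UMIs.

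Barcodes with under 500 genes or over 10% mitochondrial UMIs were left out (895, 1175, 2200 and 2071 in the irradiated Vegfc-deleted, irradiated control, non-irradiated Vegfc-deleted and non-irradiated control libraries). The highest Scrublet scores, 0.8% per 1000 barcodes, were left out as doublets (211, 212, 479 and 444). Libraries held 54462123 to 77284922 UMIs. Cells were clustered together with scanpy 1.11.5 (2000 variable genes without the members, 40 components, 20 neighbours, Leiden resolution 1), which gave 41 clusters, and 16 classes were named from marker lists. These names are rebuilt and may differ from those of the study. A class was used in a library with at least 20 cells of it.

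UMIs of a class were summed within each library and given as CPM with exact Poisson intervals, shares with exact binomial intervals, and ratios with exact conditional intervals and a prior count of 0.5. Ratios were called past 1.5-fold, for genes with at least 30 counts in 1 of the 2 libraries. There was no test, since each group is 1 library, and these intervals cover counting error only. Thinning drew 1500 UMIs per cell and left out shallower cells. The scripts recovered known ratios in Poisson counts simulated from the sinusoidal sums. That checks the code and says nothing about the spread between cells, libraries or mice.

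The members, gene lists and marker lists were chosen with earlier results of these data known. From each list up to 4 genes per direction were eligible for naming, by the size of the smaller irradiation ratio in sinusoidal cells. Icam4, Spic, Cd163 and the genes that lead clusters were named outside that rule, after their values were seen.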

Additional observations from a re-analysis of the deposited data

Results flagged for a closer look

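In LepR+ stroma, the log2 ratio of Vegfc-deleted to control for Vcam1 was -0.32 (-0.37 to -0.27) after irradiation and 0.044 (0.013 to 0.075) without it, so the ratios pointed in opposite directions. With 1 library in each group the difference between them was not tested. With every cell thinned to 1500 UMIs the ratios were -0.083 and -0.0063.

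In sinusoidal cells, the same ratio for Sele was 0.46 (0.33 to 0.59) after irradiation and -0.33 (-0.43 to -0.22) without it, again in opposite directions and not tested. Among cells at or under the pooled median of immediate early UMIs, the ratios were -0.080 and 0.052.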

How the results depend on the processing

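No paired analysis was possible because each group is 1 library and the labels give no pairing across groups. In sinusoidal cells the irradiated level of Sele was at least 1.5-fold lower under each alternative run, with log2 ratios between -2.67 and -1.84 in controls and between -1.98 and -1.21 in Vegfc-deleted mice. Icam1 was lower throughout as well, between -2.17 and -1.66 in controls and between -2.46 and -0.45 in Vegfc-deleted mice, the weakest value being under 1.5-fold. Leiden resolution 2, pooling of all endothelial clusters, members among the variable genes, and leaving out the sinusoidal cluster of few UMIs (an alternative chosen after seeing the data) each left 20 of 20 sinusoidal ratios within their counting intervals. The cause of the larger moves below was not tested.

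TMM factors gave, for irradiation in sinusoidal cells of controls, Sele -2.67, Selp -0.55, Vcam1 -0.49 and Icam1 -2.11. In Vegfc-deleted mice they gave Selp -0.38, Vcam1 -0.38 and Icam1 -2.46. In LepR+ stroma they gave Vcam1 0.61 and Icam1 -2.21 in controls and Vcam1 0.24 in Vegfc-deleted mice. Thinning to 1500 UMIs gave, for irradiation in sinusoidal cells of controls, Sele -2.38, Selp -0.26, Vcam1 -0.31, Icam1 -2.17 and Icam2 0.25. In Vegfc-deleted mice it gave Sele -1.63, Selp -0.16, Vcam1 -0.21 and Icam1 -1.86. For the deletion it gave Sele 0.24 and Icam1 -0.14 after irradiation, and Sele -0.50, Selp -0.20 and Icam1 -0.45 without it. In stroma thinning gave Vcam1 0.72 and Icam1 -1.33 for irradiation in Vegfc-deleted mice, and Vcam1 -0.083 after and -0.0063 without irradiation for the deletion. The lower stromal Icam1 with the deletion after irradiation was under 1.5-fold with thinning (-0.44) and with doublets kept (-0.58). The mean of per-cell CPM gave stromal Vcam1 0.69 for irradiation in Vegfc-deleted mice and -0.054 for the deletion after irradiation, and sinusoidal Icam1 -0.19 for the deletion without irradiation.

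With doublets kept, irradiation in controls gave Selp -0.30, Vcam1 -0.29 and Icam1 -1.91, and the deletion without irradiation gave Selp -0.20 and Vcam1 0.29. A filter of at least 1000 genes and at most 5% mitochondrial UMIs moved Selp to -0.40 for the deletion without irradiation. Thinned cells at or under the median of immediate early UMIs gave, for irradiation in controls, Sele -1.84, Selp -0.073, Vcam1 -0.019 and Icam1 -1.66. In Vegfc-deleted mice they gave Sele -1.98, Selp -0.077, Vcam1 -0.015, Icam1 -0.45 and Icam2 -0.77. For the deletion they gave Sele -0.080, Selp 0.0070, Vcam1 0.45 and Icam1 0.15 after irradiation, and Sele 0.052, Selp 0.011, Vcam1 0.45, Icam1 -1.06 and Icam2 0.97 without it. The sinusoidal cluster led by Adgrg6, Stab2 and Flt4 alone, chosen after seeing the data, gave Sele -1.21, Selp 0.29, Vcam1 0.034, Icam1 -0.61 and Icam2 -0.18 for irradiation in Vegfc-deleted mice. It held under 20 non-irradiated control cells, so it gave no value for irradiation in controls or for the deletion without irradiation.

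Unthinned shares of sinusoidal cells with a UMI were, in the irradiated Vegfc-deleted, irradiated control, non-irradiated Vegfc-deleted and non-irradiated control libraries, 42.7%, 39.3%, 80.7% and 78.7% for Sele. They were 83.8%, 88.8%, 92.1% and 87.3% for Selp, 96.1%, 95.5%, 97.8% and 95.9% for Vcam1, 54.0%, 69.6%, 87.7% and 92.1% for Icam1, and 74.1%, 79.1%, 75.5% and 73.7% for Icam2. With a minimum of 10 counts, 1120 genes were lower after irradiation in sinusoidal cells of Vegfc-deleted mice. For the deletion, 649 sinusoidal genes were higher and 1149 lower after irradiation, and 850 higher and 717 lower without it. In stroma that minimum gave 1201 higher after irradiation, and 543 higher and 1057 lower without it. TMM factors left 1187 stromal genes higher after irradiation in controls and 1020 in Vegfc-deleted mice. With 1 library of pooled mice per group, counting depth limits what the intervals show and the spread between mice is not known.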

Other observations

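A cluster led by Sparcl1, Cd34 and Ly6c1 had leading genes of arterial or capillary endothelium but sinusoidal markers among its detected genes, and was left unnamed. It held 9, 25, 2 and 2 cells in the irradiated Vegfc-deleted, irradiated control, non-irradiated Vegfc-deleted and non-irradiated control libraries. In the 25 irradiated control cells, Vcam1 stood at 857 CPM (747 to 977), Icam2 at 299.8 CPM, Selp at 148 CPM, Icam1 at 85.7 CPM (53.7 to 129.7) and Sele at 31.1 CPM (13.4 to 61.4).

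In neutrophils Vcam1 stood at 45.6 CPM in irradiated Vegfc-deleted and 81.9 CPM in irradiated control cells, and at 32.0 CPM in non-irradiated Vegfc-deleted and 21.1 CPM in non-irradiated control cells. Selp in the same cells stood at 14.9 and 26.5 CPM in the irradiated pair and 6.91 and 5.76 CPM in the non-irradiated pair. Both genes stood far higher in sinusoidal cells of each library. The part of sinusoidal RNA in these neutrophil levels was not tested.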
